A study of Rattus norvegicus with 18 samples.

Results

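The 10 genes described here are core and accessory members of the circadian clock: Arntl (now Bmal1), Clock, Per1, Per2, Per3, Cry1, Cry2, Nr1d1, Nr1d2 and Dbp. They were found by gene name, or an older synonym of the same transcript, among the 41012 distinct probes of the array, of which 21290 carried a gene symbol (16235 genes). Together they had 12 probes, 3 of them for Per3 and 1 for each other gene. RNA came from untreated, alcohol-naive male rats, killed by decapitation, of the WHP line, selected to prefer ethanol, and the WLP line, selected for low preference. The areas were hippocampus, nucleus accumbens and prefrontal medial cortex, each in 3 pool pairs, a pool being equal RNA from 3 rats of 1 line, and each WHP pool was hybridised against a WLP pool on 2 arrays with the dyes exchanged, 18 arrays in all. The labels do not say whether the same rats gave all 3 areas. The clock time of killing is not given in the sources used here.

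In mammals the heterodimer of ARNTL and CLOCK binds E-box sequences and drives transcription of the Per and Cry genes, whose proteins return to repress it. It also drives Nr1d1 and Nr1d2, which encode the REV-ERB repressors of Arntl, and Dbp, which encodes a transcription activator acting at D-box sequences. Because of this loop, Arntl transcripts and those of Dbp, Nr1d1 and the Per genes peak at opposite times of day in most tissues, the forebrain included, while Clock transcripts vary little.

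These feedback sites are the reason for showing 4 promoter windows, each the 250 bases before the transcription start in the RefSeq table for build GRCr8. That table held 11 windows of 9 of the genes; Cry1 was not matched. Capitals mark matches, on either strand, to the E-box CACGTG, the related CACGTT, the D-box TTATGTAA or TTACGTAA, the REV-ERB element TAGGTCA or the cyclic AMP element TGACGTCA. The Per2 window (chr9:99496994-99497243, minus strand) held CACGTT at -62 and a D-box at -192, counted from the start. The Arntl window (chr1:176766078-176766327, plus strand) held the REV-ERB element at -16. CACGTT lay at -174 in Nr1d1 (chr10:84231813-84232062, minus strand) and at -212 in Cry2 (chr3:98860438-98860687, minus strand).
Per2: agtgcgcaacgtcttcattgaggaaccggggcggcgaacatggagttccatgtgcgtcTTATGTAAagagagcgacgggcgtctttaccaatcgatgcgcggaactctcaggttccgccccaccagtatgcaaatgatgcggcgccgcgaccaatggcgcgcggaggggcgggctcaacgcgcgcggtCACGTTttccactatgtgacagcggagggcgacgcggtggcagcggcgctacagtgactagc
Arntl: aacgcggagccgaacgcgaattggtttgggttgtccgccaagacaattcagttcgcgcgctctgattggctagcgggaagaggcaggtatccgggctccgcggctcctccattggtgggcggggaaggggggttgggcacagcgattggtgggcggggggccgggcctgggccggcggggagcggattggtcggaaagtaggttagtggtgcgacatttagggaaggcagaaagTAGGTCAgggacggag
Nr1d1: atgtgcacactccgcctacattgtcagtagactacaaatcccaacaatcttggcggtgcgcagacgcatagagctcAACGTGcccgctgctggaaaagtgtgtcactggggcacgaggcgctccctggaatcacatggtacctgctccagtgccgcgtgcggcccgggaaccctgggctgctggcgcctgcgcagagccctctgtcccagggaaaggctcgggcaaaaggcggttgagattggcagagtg
Cry2: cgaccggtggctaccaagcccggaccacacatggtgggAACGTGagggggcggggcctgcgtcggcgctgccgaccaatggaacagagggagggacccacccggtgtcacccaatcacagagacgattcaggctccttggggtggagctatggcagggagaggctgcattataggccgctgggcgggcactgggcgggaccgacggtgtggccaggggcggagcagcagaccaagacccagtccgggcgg
CACGTT was in 3 of the 11 windows and in 4.07% of the 33469 windows in the table; the D-box was in 1 and in 0.932%, and the REV-ERB element in 1 and in 2.26%. CACGTG was in 1 window, that of a further Nr1d1 start, at -191, and in 5.59% of the table. The cyclic AMP element was in 0 windows and in 1.59% of the table. A match describes these letters, not a bound site.

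On the array the Per1 probe, of 60 bases, starts at base 3618 of its transcript and spans chr10:55867840-55868424 in rn4, the build of the array design. Per2 was read at chr9:90645610-90645669, Arntl at chr1:171161969-171162028, Dbp at chr1:96178020-96178079, Cry1 at chr7:20708985-20709044 and Cry2 at chr3:76802827-76802886. The Clock probe spans chr14:34247245-34248295 and the Nr1d1 probe chr10:87543165-87543519. These 2 spans and that of Per1 are longer than the probe, so the 3 probes are split by intervening sequence. The Nr1d2 probe has no position in the files, and exon and UTR borders on rn4 were not used here. Of the 3 Per3 probes, the brightest (chr5:168152851-168152910) leads. The next starts at base 3272 of the same transcript, against base 3286 for the leading probe. Its given position, chr5:168152693-168152701, spans only 9 bases and lies apart from that of the leading probe. Capitals mark the 22 bases that both share, and on either side of these the letters of the 2 probes differ.
Per3: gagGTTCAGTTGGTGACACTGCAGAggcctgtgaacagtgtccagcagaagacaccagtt
Per3 probe 2: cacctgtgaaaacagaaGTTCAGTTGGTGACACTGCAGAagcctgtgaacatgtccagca
The Nr1d1 probe is shown because its signal depended on the dye, as described further on.
Nr1d1: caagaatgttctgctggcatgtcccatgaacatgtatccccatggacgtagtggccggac

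The leading probe of each of the 10 genes was well above background in all 3 areas. Per3 probe 2 was not detected in the prefrontal cortex, and Per3 probe 3 in 0 areas. Of the 45018 spots on an array 1639 were controls. Of the others, 28670 to 38173 were well above background in either dye. Hippocampus arrays had 34149 to 38173 such spots and the arrays of the other areas 28670 to 34446. Ratios are log2 of WHP over WLP after background correction and loess, averaged over the 2 arrays of a pool pair, so that 1 pool pair is 1 replicate. The 2 arrays of a pair correlated over the detected probes with r of 0.296 to 0.70, except in nucleus accumbens pool pair 3 (0.0443) and hippocampus pool pair 2 (-0.00403). Slides 1 to 3, scanned in session 1, each carried 1 accumbens and 1 prefrontal pool pair; the hippocampus was on slides 4 and 5, scanned in session 2. Because pools are the replicates, p-values measure the spread between pools.

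The first comparison asked whether the clock genes differ between the ethanol-preferring and non-preferring line. None passed the threshold in any area: limma's moderated test with Benjamini-Hochberg adjustment over all detected probes called 0 of 10 in the nucleus accumbens, 0 in the prefrontal cortex, 0 in the hippocampus and 0 in the mean of the 3 areas. The background of such calls was low, at 0.308%, 0.0974%, 0.273% and 3.03% of the probes tested. At an unadjusted p under 0.05 the counts were 3, 1, 0 and 2, while 17.1%, 8.97%, 7.04% and 18.6% of all tested probes passed it. The ratio closest to a call was that of Per2, which was higher in WHP in 9 of 9 pool pairs.

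**Figure D1:**
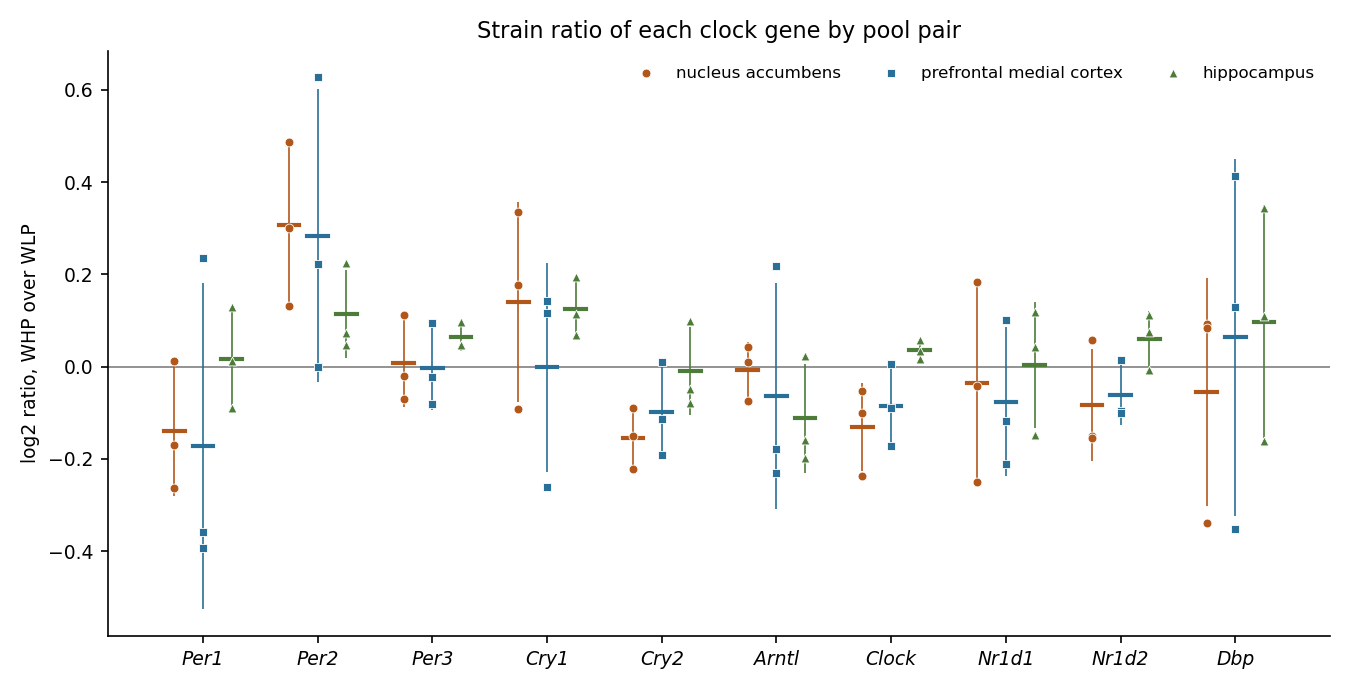
Log2 ratio of WHP over WLP for the leading probe of each clock gene; each point is 1 pool pair, the thick bar the mean and the thin line 1 SD of the 3 pool pairs of an area. Per2 lies at or above 0 in 9 of 9 pool pairs, Dbp and Per1 spread widely on both sides of 0, and Per3 lies between -0.081 and 0.11.

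Among the activators, Arntl, whose protein is the obligate partner of CLOCK, had log2 ratios of 0.010, 0.042 and -0.075 in nucleus accumbens pool pairs 1, 2 and 3. In the prefrontal cortex they were 0.22, -0.23 and -0.18, and in the hippocampus 0.022, -0.20 and -0.16. The pairs fell on both sides of 0 in every area, and the mean over the 9 pool pairs was -0.061 ± 0.15 (SD; limma adjusted p = 0.54). Clock, which encodes its DNA-binding partner, had ratios of -0.053, -0.10 and -0.24 in the nucleus accumbens, 0.0069, -0.090 and -0.17 in the prefrontal cortex, and 0.017, 0.058 and 0.034 in the hippocampus. The nucleus accumbens pairs were all below 0 and the hippocampus pairs all above it, without overlap. The accumbens mean of -0.13 had an unadjusted p of 0.022 and a limma adjusted p of 0.23. The strain difference in the accumbens minus that in the hippocampus was -0.17 ± 0.066 (SE; limma adjusted p = 0.53).

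Of the inhibitors, Per2, a light- and glucocorticoid-responsive repressor of the loop, had ratios of 0.13, 0.30 and 0.49 in the nucleus accumbens. In the prefrontal cortex they were 0.63, 0.00020 and 0.22, and in the hippocampus 0.22, 0.047 and 0.074. No pool pair was below 0, though prefrontal pool pair 2 was at it, and the sign was positive on 16 of 18 single arrays. Over the 9 pool pairs the mean was 0.235 (95% confidence interval 0.091 to 0.38), a 1.18-fold higher level in WHP, with an unadjusted p of 0.0053 and a limma adjusted p of 0.0921, which missed the threshold. By area the means were 0.31 ± 0.18, 0.28 ± 0.32 and 0.12 ± 0.095 (SD, n = 3), with limma adjusted p-values of 0.23, 0.52 and 0.97. Without prefrontal pool pair 1 the prefrontal mean was 0.11 (limma adjusted p = 0.63), and without prefrontal pool pair 2 it was 0.43 (limma adjusted p = 0.38). The accumbens pair with the highest ratio, pool pair 3, gave 0.91 on the array with WHP in Cy3 and 0.067 on the array with WHP in Cy5. Without that pool pair the mean of the areas was 0.20 (limma adjusted p = 0.19). Over 19 alternatives the mean stayed positive, from 0.18 to 0.28, with limma adjusted p-values from 0.0586 to 0.28. The hippocampus mean alone turned to -0.049 where array medians replaced loess.

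Per1, an immediate early gene as well as a clock repressor, had ratios of -0.17, 0.013 and -0.26 in the nucleus accumbens. They were 0.23, -0.39 and -0.36 in the prefrontal cortex and 0.012, 0.13 and -0.089 in the hippocampus. Prefrontal pool pair 1 stood apart from the other two prefrontal pairs in both sign and size. The mean over the 9 pool pairs was -0.098 (limma adjusted p = 0.47). Without prefrontal pool pair 1 it was -0.17 (limma adjusted p = 0.0495), the 1 alternative of 19 in which a clock gene passed the threshold in the mean of the areas. In that alternative 1503 of all probes passed in the mean of the areas, against 861 in the main fit. Over the 19 alternatives the limma adjusted p of Per1 ran up to 0.742.

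A list of other immediate early genes was read beside Per1. Of 17, 18 and 17 detected members of that list, 1, 0 and 0 were higher in WHP in the nucleus accumbens, prefrontal cortex and hippocampus, and their median ratios were -0.232, -0.142 and -0.136. In the 3 prefrontal pool pairs the list's medians were 0.429, -0.75 and -0.245, each with the sign of Per1. In the accumbens pairs they were 0.00204, -0.428 and -0.20, opposite in sign to Per1 in pairs 1 and 2, and in the hippocampus pairs -0.244, 0.106 and -0.317, opposite in pair 1. Over the 9 pool pairs r with Per1 was 0.701 (rho = 0.567; exact permutation p = 0.0325 and 0.121; adjusted p of r = 0.27), and it fell to 0.189 without the 2 farthest pool pairs. The relation was not particular to Per1. With Cry2 the list had r = 0.764 (rho = 0.75, exact permutation p = 0.0181 and 0.0255, adjusted p of r = 0.258), and 0.78 without the 2 farthest pool pairs. None of the list's genes passed limma's test in an area or in the mean, and the list's part in the Per1 values was not tested.

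Per3, a paralogue whose loss leaves the rhythm largely intact, had ratios of -0.071, 0.11 and -0.020 in the nucleus accumbens, -0.081, -0.023 and 0.095 in the prefrontal cortex, and 0.047, 0.097 and 0.046 in the hippocampus. All lay within a narrow range around 0, but the probe is dim and the background offset narrows the ratios of dim probes. The hippocampus mean was 0.063 and ran from 0.047 to 0.30 over 20 alternatives. The second probe ranged from -0.11 to 0.083. Its sign in accumbens pool pairs 2 and 3 was opposite to that of the leading probe.

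Cry1, which encodes a strong repressor of the ARNTL and CLOCK pair, had ratios of 0.18, -0.091 and 0.34 in the nucleus accumbens, -0.26, 0.12 and 0.14 in the prefrontal cortex, and 0.11, 0.069 and 0.19 in the hippocampus. It was positive in 7 of 9 pool pairs, with a mean of 0.088 ± 0.17 (SD; limma adjusted p = 0.42). Cry2, its paralogue, had ratios of -0.090, -0.22 and -0.15 in the nucleus accumbens, 0.010, -0.19 and -0.11 in the prefrontal cortex, and -0.048, 0.10 and -0.078 in the hippocampus. The accumbens pairs were all below 0, with a mean of -0.15 ± 0.066 (SD, n = 3), an unadjusted p of 0.016 and a limma adjusted p of 0.21. Over the 9 pool pairs Cry2 averaged -0.087 (95% confidence interval -0.16 to -0.019; limma adjusted p = 0.17).

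In the second loop, Nr1d1 had ratios of 0.18, -0.25 and -0.042 in the nucleus accumbens, -0.12, -0.21 and 0.10 in the prefrontal cortex, and 0.12, 0.043 and -0.15 in the hippocampus. Nr1d2, the second REV-ERB gene, had 0.058, -0.15 and -0.16, then -0.097, -0.10 and 0.014, then 0.074, 0.11 and -0.0081 in the same order. Both crossed 0 in every area, and the signs of their pair averages were equal in 9 of 9 pool pairs. The 2 arrays behind an average had opposite signs in 4 of 9 pairs for Nr1d1 and in 4 of 9 for Nr1d2. Their means over the 9 pool pairs were -0.036 and -0.028 (limma adjusted p = 0.75 and 0.65).

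The output gene Dbp varied most. Its ratios were 0.093, -0.34 and 0.085 in the nucleus accumbens, -0.35, 0.13 and 0.41 in the prefrontal cortex, and 0.11, 0.34 and -0.16 in the hippocampus. High and low pairs occurred in every area, and the mean was 0.036 (95% confidence interval -0.16 to 0.23; limma adjusted p = 0.86). The SD of pool pairs around their area means was 0.303 for Dbp, larger than that of 91.8% of the probes detected in all areas, against 0.228 for Per1 and 0.217 for Per2. For the median probe it was 0.124, and for Clock and Per3 0.0768 and 0.0771. Dbp is the brightest of the leading probes, while Clock and Per3 are dim, and the background offset narrows the ratios of dim probes. The order of these SDs therefore cannot be told apart from brightness.

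The strain difference was then compared between areas. In limma's test of each difference 0 of 10 clock genes passed for accumbens minus prefrontal cortex, 0 for accumbens minus hippocampus and 0 for prefrontal cortex minus hippocampus. Of all probes tested 0% passed in each, so the comparison called nothing at all. At an unadjusted p under 0.05 the counts were 0, 1 and 0, the 1 being Clock, and 3.64%, 9.33% and 4.04% of all tested probes passed it.

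Dye exchange showed how far single arrays can be trusted for each gene. For Dbp the 2 arrays of a pool pair had opposite signs in 1 of 9 pairs, and their median absolute gap was 0.0834. For Nr1d1 they had opposite signs in 4 of 9 pairs, and so they had for Per1, Per3 and Nr1d2. The count was 3 for Cry2, 2 each for Arntl, Cry1 and Per2, and 1 for Clock. The array with WHP in Cy5 gave the higher Nr1d1 ratio in 8 of 9 pairs, by 0.332 on average. The gap was widest in hippocampus pool pair 2, where the ratios were 0.59 with WHP in Cy5 and -0.50 with WHP in Cy3. With arrays of only 1 orientation, the hippocampus mean of Nr1d1 was 0.27 for WHP in Cy5 and -0.26 for WHP in Cy3. Averaging the orientations cancels only the part of a dye effect that is equal on both arrays of a pair. The Nr1d1 gap was not constant, running from -0.0314 to 1.09. After hippocampus pool pair 2 it was widest in accumbens pool pair 3 (0.792), and these are the pairs whose 2 arrays were uncorrelated over all detected probes.

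**Figure D2:**
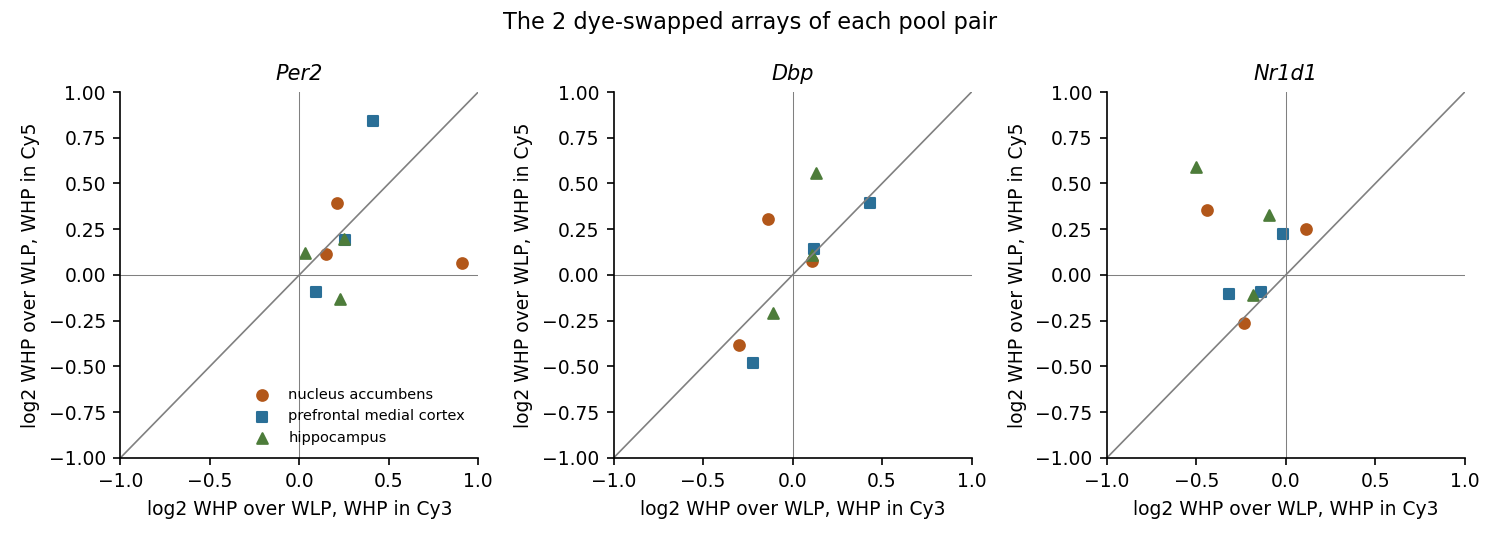
Log2 ratio of WHP over WLP on the array with WHP in Cy3 (horizontal) and in Cy5 (vertical) for the 9 pool pairs of Per2, Dbp and Nr1d1; the diagonal marks equal values. Dbp lies near the diagonal in most pairs, whereas Nr1d1 lies above it in 8 of 9 and Per2 has 1 accumbens pair, at 0.91 and 0.067, far below it.

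Whether the genes moved together was examined over the 9 pool pairs. Among 45 gene pairs Pearson's r ranged from -0.696 to 0.764, with a median of 0.0506. In exact two-sided permutation tests 7 pairs (15.6%) had a p under 0.05, and 0 did after Benjamini-Hochberg adjustment over the 45 (lowest adjusted p = 0.286). The values below are therefore descriptions. All 9 points share their arrays between genes.

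The Arntl ratio ran with that of Per2 and against that of Dbp from pool pair to pool pair, though neither relation passed adjustment. For Arntl and Per2 r was 0.764 (rho 0.833; exact permutation p = 0.0148 and 0.00827; adjusted p = 0.286 and 0.278). It was 0.731 over the accumbens and prefrontal pairs, 0.845 from processed scanner signals, and 0.73 without the 2 pool pairs farthest from the median of Per2. Prefrontal pool pair 1 was the highest for both genes and prefrontal pool pair 2 the lowest for both. The r of Arntl with Per2 was above that of Arntl with 99% of the probes detected in all areas. This gene pair had the highest r of the 45, so that share is extreme partly by choice. With Arntl the share was 95.2% for Per1, 64.5% for Clock, 60.5% for Cry2 and 50% for Nr1d1. It was 27.7% for Nr1d2, 13.7% for Per3 and 3.06% for Cry1.

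For Arntl and Dbp r was -0.696 (rho -0.767; exact permutation p = 0.039 and 0.0214; adjusted p = 0.286 and 0.278), -0.825 over the accumbens and prefrontal pairs and -0.567 without the 2 pool pairs farthest from the median of Arntl. Prefrontal pool pair 1 was the highest for Arntl and the lowest for Dbp. Only 1.72% of probes had a lower r with Arntl, for the gene pair that had the lowest r of the 45. The other genes described above as peaking opposite to Arntl differed in the sign of their relation to it. Their r with Arntl was 0.628 for Per1, 0.764 for Per2, -0.43 for Per3 and -0.0146 for Nr1d1. Dbp had r = -0.497 with Per1, -0.495 with Per2 and 0.267 with Per3. None of these relations passed adjustment. Dbp was positively related to Nr1d1 (r = 0.645, rho = 0.467; exact permutation p = 0.0669 and 0.213; adjusted p = 0.289 and 0.638).

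Nr1d1 and Nr1d2 had r = 0.758 (rho = 0.70; exact permutation p = 0.0257 and 0.0433; adjusted p = 0.286 and 0.278), 0.855 over the accumbens and prefrontal pairs and 0.653 without the 2 farthest pool pairs. Per1 was opposed to Cry1 (r = -0.69, rho = -0.70; exact permutation p = 0.0346 and 0.0433; adjusted p = 0.286 and 0.278), and r was -0.597 without the 2 farthest pool pairs. Per1 with Clock had r = 0.699, Clock with Cry2 0.692 and Nr1d2 with Cry2 0.678, with exact permutation p-values of 0.038, 0.0381 and 0.0445 (adjusted p = 0.286). Per1 with Arntl had r = 0.628, which fell to 0.15 without the 2 farthest pool pairs and so rests on those. With area means removed, r was -0.924 for Per1 with Cry1 and 0.876 for Nr1d1 with Nr1d2. These passed adjustment when pool pairs were permuted freely (exact permutation, adjusted p = 0.00521 and 0.0423) but not when they were permuted within their area (exact permutation, 216 orders; adjusted p = 0.417 and 0.685).

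**Figure D3:**
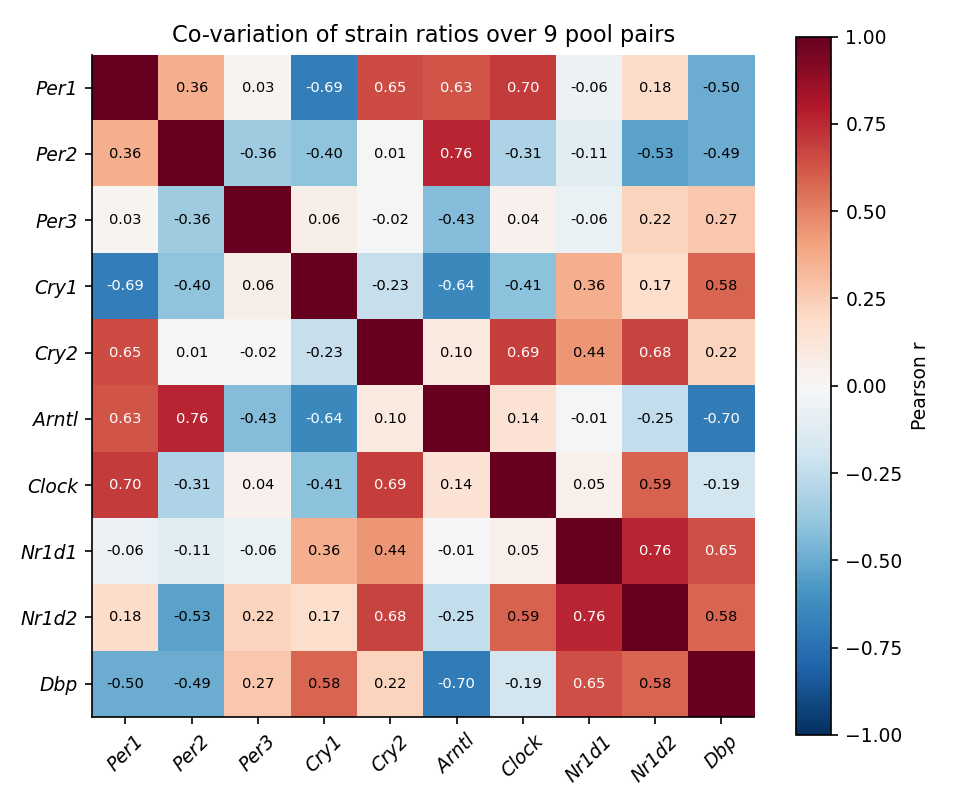
Pearson's r of the log2 ratio of WHP over WLP between clock genes over the 9 pool pairs, from -1 (blue) to 1 (red). Arntl stands with Per2 (0.764) and Per1 (0.628) and against Dbp (-0.696) and Cry1 (-0.641), and none passed adjustment. Without the 2 farthest pool pairs these r were 0.73, 0.15, -0.567 and -0.281.

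**Figure D4:**
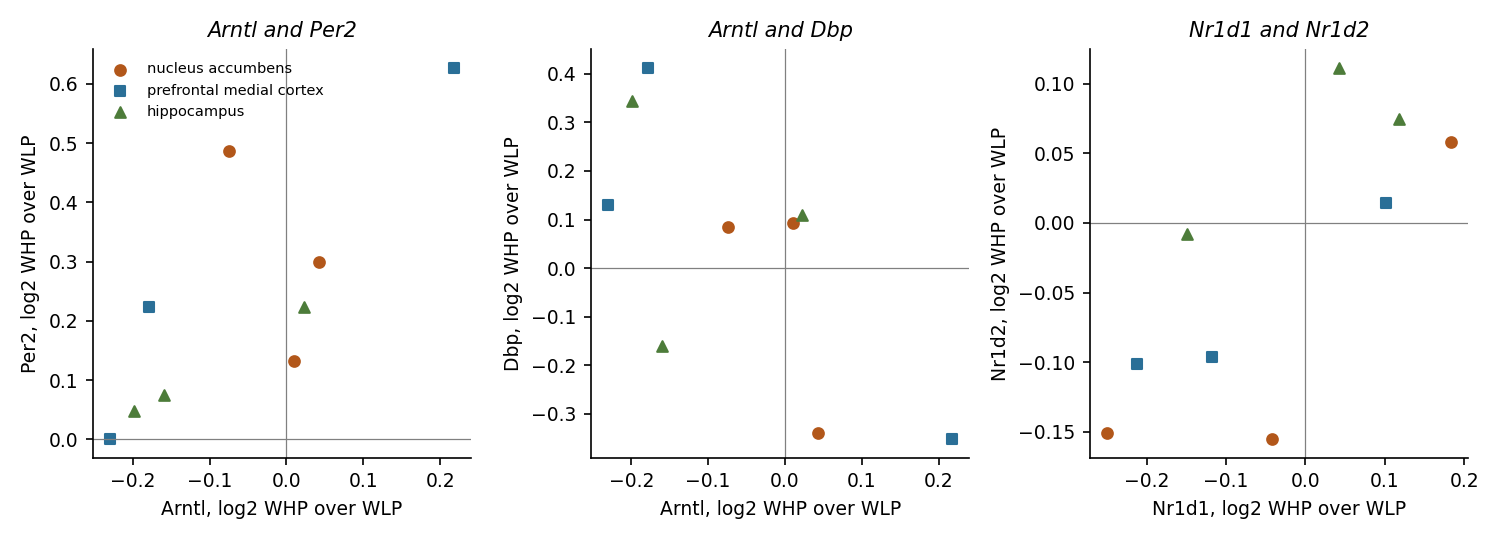
Log2 ratios of WHP over WLP of Arntl with Per2, Arntl with Dbp, and Nr1d1 with Nr1d2; each point is 1 of 9 pool pairs, coloured by area. Prefrontal pool pair 1 lies at the right edge of the first 2 panels, and the third panel has 9 of 9 points in the quadrants of equal sign. Each point averages 2 arrays, which had opposite signs in 4 of 9 pairs for Nr1d1 and in 4 of 9 for Nr1d2.

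Of 12499 other genes ranked, Asb16 (r = 0.943), Nfil3 (0.938), Dync1h1 (0.934), Myo5a (0.928) and Cntn3 (0.92) had the pattern most like that of Arntl over the 9 pool pairs. Nfil3 encodes the E4BP4 repressor of D-box sequences. Its ratios were -0.19, -0.15 and -0.25 in the nucleus accumbens, 0.12, -0.51 and -0.51 in the prefrontal cortex and -0.02, -0.42 and -0.26 in the hippocampus. It was lower in WHP in 8 of 9 pool pairs, with a mean of -0.24 ± 0.070 (SE; limma adjusted p = 0.11). Among the genes most like Dbp were RT1-CE5 (0.931), Dnajc30 (0.922), Trir (0.906) and Plppr1 (0.891).

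Tissue markers also differed between the pools of a pair. Pool pair medians of 10 marker lists were set against the 10 genes, 100 relations in all; 16 had an exact permutation p under 0.05 and 0 passed adjustment (lowest adjusted p = 0.0755). The 15 striatum markers had medians of -0.734, 0.339 and 0.371 in the prefrontal pairs. Over the 9 pool pairs their median related to Per1 with r = -0.833, to Dbp with 0.784, to Arntl with -0.696 and to Cry1 with 0.663 (exact permutation p = 0.00671, 0.0125, 0.0395 and 0.0436; adjusted p = 0.243, 0.243, 0.291 and 0.291). In the prefrontal pairs the 8 cortex markers ran the other way in pairs 1 and 2, with medians of 0.561, -0.555 and -0.0407. The lowest adjusted p belonged to Per3 with the microglia markers (r = 0.899, rho = 0.90; exact permutation p = 0.000755). The part of tissue make-up in the co-variation of the clock genes was not tested.

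The level of each probe was next compared between the areas, as the mean log2 intensity of both dyes relative to the median probe. In bulk RNA, fewer cells expressing a gene and less RNA per cell cannot be told apart. Session and area cannot be told apart for the hippocampus either. Arntl, Per1 and Per2 were lower in the nucleus accumbens than in both other areas, by 0.37 to 1.24. Limma called 6 of 10 genes between nucleus accumbens and prefrontal cortex, 1 higher in the accumbens and 5 higher in the prefrontal cortex, where 22.5% and 21.1% of the probes tested were called in those directions. All 10 differed between nucleus accumbens and hippocampus, 6 of them higher in the accumbens and 4 higher in the hippocampus (background 35.6% and 38.4%). All 10 also differed between prefrontal cortex and hippocampus, 8 higher in the prefrontal cortex and 2 higher in the hippocampus (background 33.3% and 37.6%). With so many probes called, counts near these shares say little about clock genes.

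**Figure D5:**
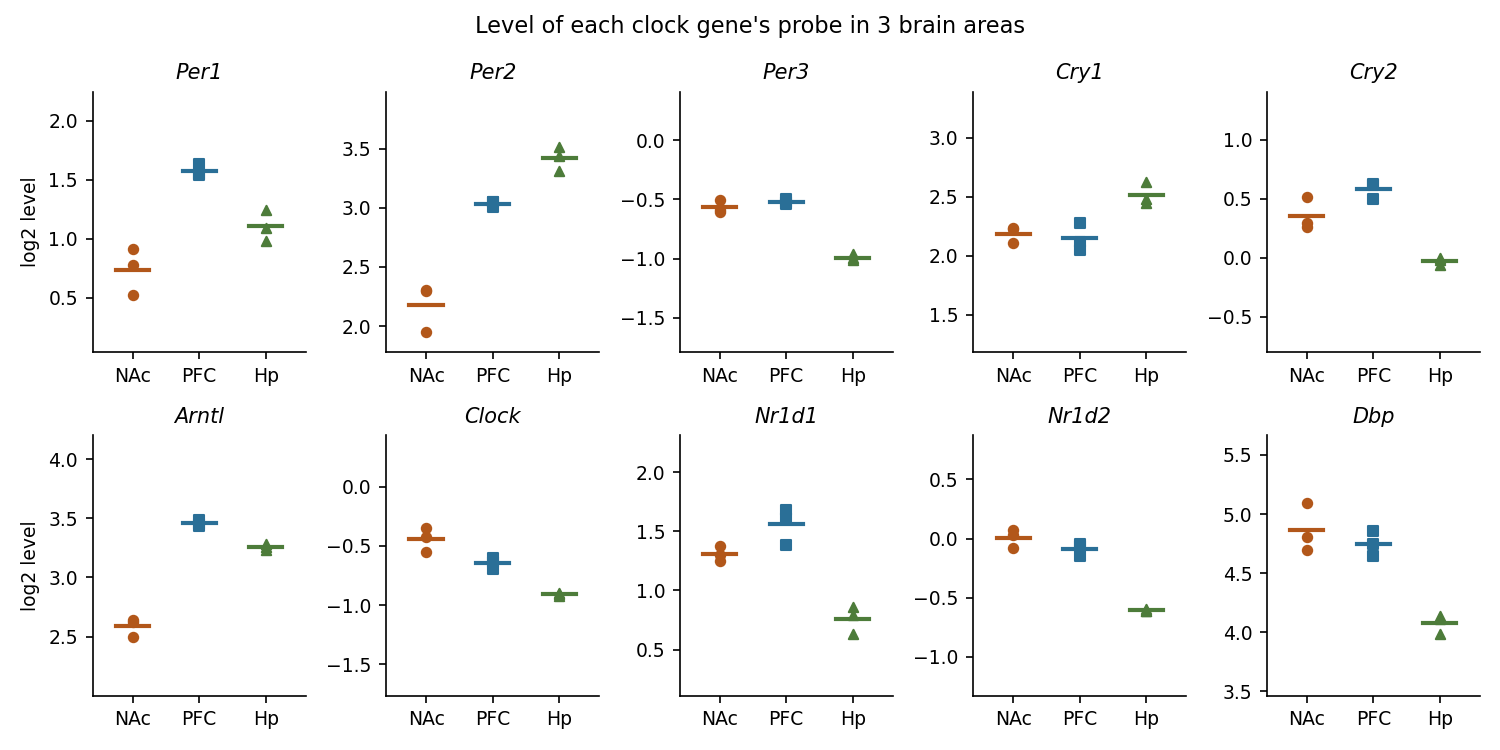
Log2 level of the leading probe of each clock gene relative to the median probe, in nucleus accumbens (NAc), prefrontal medial cortex (PFC) and hippocampus (Hp); points are the 3 pool pairs, bars their means, and each panel spans the same range around its gene's own mean. Per1, Per2 and Arntl are lowest in the accumbens, and Per3, Clock, Nr1d1, Nr1d2, Dbp and Cry2 are lowest in the hippocampus; with array medians in place of quantile scaling the order of prefrontal cortex and hippocampus turns for Arntl.

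Arntl levels were 2.50, 2.62 and 2.64 in the accumbens pairs, 3.45, 3.48 and 3.43 in the prefrontal pairs and 3.23, 3.28 and 3.26 in the hippocampus pairs. The 3 groups did not overlap. The accumbens was lower than the prefrontal cortex by 0.87 ± 0.046 (SE; 1.83-fold; limma adjusted p = 3.4e-06) and lower than the hippocampus by 0.67 (1.59-fold; limma adjusted p = 1.0e-06). The prefrontal cortex exceeded the hippocampus by 0.20 (limma adjusted p = 0.0030), but with the array median in place of quantile scaling this difference was -0.34 (limma adjusted p = 0.26), and with the processed signals 0.034 (limma adjusted p = 0.70). The accumbens minus prefrontal difference also lost its call with array medians, at -0.74 (limma adjusted p = 0.12), and the accumbens minus hippocampus difference widened to -1.09 (limma adjusted p = 0.0057).

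Per2 levels were 1.95, 2.29 and 2.31 in the accumbens, 3.05, 3.01 and 3.05 in the prefrontal cortex and 3.31, 3.51 and 3.44 in the hippocampus. The order from accumbens to hippocampus held without overlap. Accumbens and hippocampus differed by -1.24 ± 0.092 (SE), a 2.36-fold difference and the widest among the 10 genes (limma adjusted p = 1.6e-06). Prefrontal cortex and hippocampus differed by -0.39 (limma adjusted p = 0.0037), or by -0.93 with array medians (limma adjusted p = 0.014). Accumbens and prefrontal cortex differed by -0.85 (limma adjusted p = 8.4e-05), or by -0.72 with array medians, which lost the call (limma adjusted p = 0.14). In the accumbens the Per2 level averaged 2.34 in WHP and 2.03 in WLP.

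Per1 levels were 0.78, 0.91 and 0.53 in the accumbens, 1.63, 1.54 and 1.55 in the prefrontal cortex and 1.09, 0.99 and 1.25 in the hippocampus. The prefrontal cortex was highest, 0.84 ± 0.096 (SE; 1.79-fold) above the accumbens with a limma adjusted p of 0.00012. It was 0.47 above the hippocampus (limma adjusted p = 0.0016), though with array medians this difference was 0.27 and lost the call (limma adjusted p = 0.21), and with the processed signals it was 0.72 (limma adjusted p = 0.0018). The accumbens minus hippocampus difference of -0.37 (limma adjusted p = 0.0058) lost its call with the processed signals (-0.31; limma adjusted p = 0.079). Per3, dim on this array, was at -0.57 ± 0.055, -0.52 ± 0.020 and -0.99 ± 0.027 (SD, n = 3) in accumbens, prefrontal cortex and hippocampus. Accumbens and prefrontal cortex overlapped, and the hippocampus was lower than both, by 0.43 and 0.47 (limma adjusted p = 7.8e-06 and 5.3e-06). With the processed signals these differences were 1.12 and 0.92 (limma adjusted p = 0.00017 and 0.00056). Per3 probe 2 also differed, by 0.13 for accumbens minus hippocampus (limma adjusted p = 0.0098).

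Clock fell in the order accumbens (-0.45 ± 0.10), prefrontal cortex (-0.64 ± 0.046) and hippocampus (-0.91 ± 0.015; SD, n = 3), without overlap. Its accumbens minus prefrontal difference of 0.20 (limma adjusted p = 0.014) lost the call with array medians (0.12; limma adjusted p = 0.67) and without prefrontal pool pair 3 (0.17; limma adjusted p = 0.053). From the processed signals it was 0.99 (limma adjusted p = 0.0011), which lowered the prefrontal minus hippocampus difference from 0.27 to 0.14 (limma adjusted p = 0.44). With array medians that difference was 0.47 (limma adjusted p = 0.028). The accumbens minus hippocampus difference of 0.47 (limma adjusted p = 2.9e-05) was 1.13 from the processed signals (limma adjusted p = 0.00017). Cry1 was highest in the hippocampus (2.52 ± 0.093) and overlapped between accumbens (2.19 ± 0.071) and prefrontal cortex (2.15 ± 0.12; SD, n = 3). Its accumbens minus hippocampus difference was -0.33 (limma adjusted p = 0.0018), and -0.66 with array medians (limma adjusted p = 0.051). The prefrontal minus hippocampus difference was -0.37 (limma adjusted p = 0.0010), and -0.77 with array medians (limma adjusted p = 0.028). Cry2 ran the other way, at 0.36 ± 0.14, 0.58 ± 0.073 and -0.027 ± 0.030 in accumbens, prefrontal cortex and hippocampus (SD, n = 3). Its prefrontal minus hippocampus difference of 0.61 ± 0.067 (SE) kept its call in 13 of 13 alternatives (limma adjusted p = 2.9e-05) and was 0.97 from the processed signals, where accumbens minus hippocampus went from 0.38 to 0.69, whereas its accumbens minus prefrontal difference of -0.22 (limma adjusted p = 0.023) kept it in 7. The call was lost without accumbens pool pair 2 or 3 or prefrontal pool pair 1 or 3, one at a time (-0.20 to -0.18), and under both other scalings.

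Nr1d1 was at 1.31 ± 0.064, 1.56 ± 0.16 and 0.76 ± 0.11 and Nr1d2 at 0.0062 ± 0.078, -0.084 ± 0.055 and -0.61 ± 0.0079 in accumbens, prefrontal cortex and hippocampus (SD, n = 3). Both were lowest in the hippocampus, by 0.80 and 0.52 against the prefrontal cortex (limma adjusted p = 1.8e-05 and 9.0e-06). Nr1d2 did not separate accumbens from prefrontal cortex (0.091 ± 0.048, SE; limma adjusted p = 0.16), except without accumbens pool pair 3 (0.13; limma adjusted p = 0.042) or with the processed signals (0.39; limma adjusted p = 0.024). For Nr1d1 that difference was -0.25 (limma adjusted p = 0.033), a call lost without the same 4 pool pairs as for Cry2 (-0.25 to -0.19) and under both other scalings. Its accumbens minus hippocampus difference of 0.55 (limma adjusted p = 0.00019) was 0.44 with array medians (limma adjusted p = 0.074) and 0.86 with the processed signals (limma adjusted p = 0.00036). For Nr1d2 the processed signals gave 1.19 in place of 0.61 for accumbens minus hippocampus and 0.80 in place of 0.52 for prefrontal cortex minus hippocampus.

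Dbp levels were 5.10, 4.69 and 4.80 in the accumbens, 4.74, 4.64 and 4.86 in the prefrontal cortex and 4.11, 4.14 and 3.98 in the hippocampus. Accumbens and prefrontal cortex overlapped and the hippocampus lay below both, by 0.79 and 0.67 (limma adjusted p = 5.5e-05 and 0.00019). With array medians these differences were 0.28 and 0.052 (limma adjusted p = 0.43 and 0.88). The position of this bright probe against the hippocampus arrays therefore depended on the scaling.

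The tissue labels bear on these levels. By the median in each pool pair over the members detected in all areas, the 14 such striatum markers (of 15) lay at a level of 3.92 to 4.78 in the accumbens pairs, 3.87 to 4.59 in the prefrontal pairs and 1.97 to 2.59 in the hippocampus pairs. The 8 cortex markers lay at 0.563 to 0.756, 3.07 to 3.47 and 2.20 to 2.28. So the pools labelled prefrontal carried striatum markers at about the accumbens level beside cortex markers. The 7 hippocampus markers (of 10) detected in all areas lay at 2.50 to 2.55 in the hippocampus, against 1.76 to 2.07 in the accumbens and 1.49 to 1.58 in the prefrontal cortex. What these mixtures add to the clock gene levels was not tested.

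Other genes of the clock pathway, among them kinases, ubiquitin ligases and further transcription factors, showed the same lack of calls between the lines. Of 36 listed genes 31 had a detected probe, and limma called 0 in each area and in the mean of the areas. Their median ratios were -0.0529, -0.0267 and -0.0106, with 10, 12 and 12 of 31 above 0 in accumbens, prefrontal cortex and hippocampus. The medians of the 10 clock genes were -0.045, -0.062 and 0.048, and those of all tested probes 0.00089, 0.0015 and -0.0029. The lowest adjusted p in an area was 0.138 and belonged to Npas2, the forebrain paralogue of Clock, in the accumbens. Its ratios there were -0.55, -0.47 and -0.51, a mean of -0.51. In the prefrontal cortex the Npas2 ratios were 0.40, -0.44 and -0.03, and in the hippocampus -0.13, -0.00 and -0.29. Its mean of the areas was -0.225 (limma adjusted p = 0.152). The lowest limma adjusted p in the mean of the areas was 0.0859, for Rorb, a nuclear receptor of the family that activates Arntl, at -0.22. Between accumbens and prefrontal cortex 16 of the 31 differed in level, 5 higher in the accumbens and 11 in the prefrontal cortex (background 22.5% and 21.1%). Against the hippocampus 14 were higher and 12 lower in the accumbens (background 35.6% and 38.4%), and 14 higher and 9 lower in the prefrontal cortex (background 33.3% and 37.6%). Npas2 was 1.38 lower in the accumbens than in the prefrontal cortex (limma adjusted p = 1.03e-05). Its accumbens minus hippocampus difference was -0.23 (limma adjusted p = 0.056).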

How the data were processed

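Total RNA of rat brain areas was measured on 18 two-colour Agilent arrays. The deposited scanner files hold spot intensity in both dyes written by Agilent Feature Extraction 10.10.1.1, per the file headers. A value table deposited beside them holds the authors' log2 ratios (array medians from -0.0105 to 0.0223); set against the scanner files it ran as WHP over WLP on a log2 scale (r from 0.422 to 0.952), and the authors' normalization is not given in the sources used here. The background was corrected with normexp (offset 50), which narrows the ratios of dim probes, and dyes were balanced by loess in limma 3.58.1 (R 4.3.3). Non-uniform spots were left out. Ratios were turned to WHP over WLP and the 2 arrays of a pool pair averaged. One linear model with a mean per area was fitted to the 9 pool pairs (6 residual and 2.45 prior degrees of freedom), and p-values were adjusted over probes well above background on at least 4 of 6 arrays of either line, with a threshold of 0.05. Levels used the mean of both dyes after Aquantile scaling, over 35155 probes. Correlations used exact permutations of the pool pairs. The fit was tested on simulated ratios.

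The members and lists were chosen with earlier results of these data known. Each clock gene was named by its brightest detected probe, and the 5 other genes most like Arntl and Dbp by r were named, except 1 that is not reported here; of the further clock pathway genes those past the test were to be named, and Npas2 and Rorb were named after their values were seen. The pathway list and the marker lists (immediate early, glucocorticoid-induced, striatum, cortex, hippocampus, meninges and fibroblast, choroid plexus and ependyma, astrocyte, oligodendrocyte, microglia) were matched by symbol. Same-numbered pool pairs did not deviate together (r from -0.381 to 0.166), so the number was not used as a block. Alternatives changed the signal, background, scaling, dye orientation, filter, variance model and pool pairs used.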

Additional observations from a re-analysis of the deposited data

Results flagged for a closer look

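Clock had ratios of WHP over WLP below 0 in 3 of 3 nucleus accumbens pool pairs and above 0 in 3 of 3 hippocampus pool pairs; every pool pair of an area thus lay on 1 side and every pool pair of the other area on the opposite side. The strain difference in the accumbens minus that in the hippocampus was -0.1673 on the log2 scale (limma unadjusted p = 0.0335, adjusted p = 0.53), so the tested difference missed the threshold. The hippocampus arrays were scanned in a session of their own.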

How the results depend on the processing

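The numbers of clock genes called between the lines stayed at 0 in each area and in the differences between areas under the alternatives run. In the mean of the 3 areas, leaving out 1 pool pair at a time gave 0 to 1 called, and the other alternatives gave 0. The 1 was Per1 without prefrontal pool pair 1, where 1503 of all probes were called in the mean, against 861 in the main fit. The replicate block, with pool pair number as a factor, left the strain counts at 0 and gave Per2 a mean of 0.235 (limma adjusted p = 0.128). It left the level counts at 6, 10 and 10, where 42.5%, 73.4% and 70.2% of all probes were called. It changed no call of a clock gene. With array medians in place of Aquantile scaling, level calls between accumbens and prefrontal cortex fell from 6 to 1 (Per1), with 4.56% of all probes called, and Arntl in prefrontal cortex minus hippocampus turned to -0.3432 (limma adjusted p = 0.256). Leaving out 1 pool pair at a time gave 3 to 6 such calls, the 3 without prefrontal pool pair 3. Without accumbens pool pair 1, 2 or 3, 40.7%, 39.9% and 41.2% of all probes were called between accumbens and prefrontal cortex. The scanner's processed signals shifted the median of all probes by area to 0.181, -0.125 and -0.251 in the 3 level comparisons. Calls on level differences remained in 13 of 13 alternatives for 1 of 6, 6 of 10 and 6 of 10 genes. How many of all probes kept a call in every alternative was not counted, so these counts say nothing particular to clock genes. Removing area means left 2 gene pairs past adjustment among 45; permuting within areas, chosen after seeing the data, left 0. The scanner's processed signals, without the offset, widened the ratios of dim probes, Clock reaching -0.40 in the accumbens. So few pool pairs leave wide intervals: the 95% interval of the prefrontal Dbp ratio ran from -0.28 to 0.41.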

Other observations

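Of the glucocorticoid-induced genes, a class that includes Per1 in other settings, limma called 0 of 16 in each area and in the mean of the areas, where the median ratio was 0.00585 and the lowest adjusted p 0.0591. Their pool pair medians in the accumbens were 0.0647, 0.301 and -0.589. Markers of meninges and fibroblasts had accumbens medians of 1.30, 2.51 and -0.978, and 11, 5 and 11 of 11 members were higher in WHP by area mean in accumbens, prefrontal cortex and hippocampus. Of the choroid plexus and ependyma markers 5 of 9, 8 of 8 and 11 of 11 were higher in WHP in those areas (hippocampus median 0.724); 0 of either list passed limma's test. Of 10 astrocyte markers 2, 0 and 7 were higher in WHP in accumbens, prefrontal cortex and hippocampus (medians -0.118, -0.167 and 0.0572), and of 10 oligodendrocyte markers 2, 4 and 10 (medians -0.132, -0.0181 and 0.329), again with 0 calls. Of the striatum markers 1 of 15 passed as lower in WHP in the accumbens and 2 of 14 in the mean of the areas, and of the microglia markers 1 of 9 in that mean. Of all tested probes 0.308% passed in the accumbens and 3.03% in the mean, and with trended and robust variances in eBayes 0 probes passed in any strain comparison.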
